A study of Mus musculus with 12 samples.

Results

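Lilra6, Lilrb3, Lilrb4, Sirpa, Cd300a, Cd33, Pilra and Tyrobp, 7 immunoglobulin-like receptors of myeloid cells and the adaptor that serves many of their activating relatives, were followed on 12 one-colour mouse microarrays. A probe was a member if the gene name in the scanner output was that of one of these genes, or Pira3 for Lilra6, and 14 of 41174 probes qualified, covering 8 of 27670 named genes. All RNA came from PUER cells, a mouse myeloid line that lacks its own PU.1 and carries a fusion of this transcription factor with the hormone-binding part of the estrogen receptor. The cells grew in IL-3 and carried a GFP-marked retroviral vector, either a control or one whose short hairpin RNA (shRNA) targets Hnrnpa0, and were harvested either before (0 nM) or 24 h after the addition of 2 nM 4-hydroxytamoxifen (4-OHT), which activates the fusion. Each of the 4 groups held 3 arrays (A, B and C) from 3 independent experiments with separate clones for each vector. No array of cells kept in vehicle for the same time was named, so 4-OHT and 24 h in culture cannot be told apart.

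Paired receptors are encoded by neighbouring genes with similar outer parts and opposite signals. The inhibitory partner carries ITIM motifs in its own tail, which recruit the phosphatases Ptpn6 (SHP-1) and Ptpn11 (SHP-2). The activating partner has a short tail and signals through an adaptor with an ITAM motif, such as Tyrobp (DAP12) or Fcer1g, which recruits the kinase Syk. In macrophages and granulocytes the inhibitory receptors are known for restraining phagocytosis and degranulation. Sirpa, for instance, binds Cd47 on neighbouring cells, and Pirb, the current name of Lilrb3, binds MHC class I.

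Levels are log2 intensities relative to the 75th percentile of each array, and a change is a difference of such levels. They compare one probe between groups, never one probe with another. The 75th percentile lay between 1196 and 2583 intensity units, and 50.3% to 55.7% of the spots were well above background. Correlations over probes were 0.989 to 0.995 between arrays of a group and 0.950 to 0.992 between groups. Hnrnpa0, the target of the hairpin, was lower in shRNA cells by 1.54 before 4-OHT (adjusted p = 0.0137 from limma) and by 2.10 after it (adjusted p = 0.00597). Neither of these calls held when the slide of each array was added to the fit as a fixed block. Of 7 monocyte and macrophage markers, 6 rose with 4-OHT in each vector, and their mean level ran from -1.77 to -1.64 before and from 0.93 to 1.01 after 4-OHT in control cells, and from -1.71 to -1.61 and from 0.73 to 0.83 in shRNA cells. In both vectors 5 of 7 tested early granulocyte and progenitor markers and 2 of 3 tested erythroid markers fell. In each vector 1 of 2 tested megakaryocyte markers rose and 1 fell. Of 2 tested T cell markers 0 moved in control cells and 1 fell in shRNA cells. The part of these markers in the results was not tested. All 5 NK cell markers in control cells, and 4 of 5 in shRNA cells, were not well above background, as were 4 of 5 and 3 of 5 B cell markers. In RNA from whole cultures, more cells that carry a transcript and more transcript per cell cannot be told apart.

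The probes that the main results turn on are given as sequence because several genes have more than 1 probe and the probes did not always move together. Positions come from the array's design, which uses build mm7. For a probe whose 60 bases span an intron the whole probe is given, and otherwise its leading 30 bases. The whole probes lie at chr7:27358831-27360558 (plus strand, Tyrobp), chr5:136741574-136742006 (minus strand, Pilra), chr10:51308263-51309178 (plus strand, Lilrb4) and chr2:129359415-129368824 (plus strand, Sirpa), and each covers more genome than its length, so that it joins exons.
Tyrobp A_51_P261517: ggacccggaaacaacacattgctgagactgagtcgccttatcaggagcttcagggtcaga
Pilra A_52_P118521: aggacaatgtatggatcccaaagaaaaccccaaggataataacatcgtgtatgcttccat
Lilrb4 A_51_P241457: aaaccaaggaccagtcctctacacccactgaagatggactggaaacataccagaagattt
Sirpa A_51_P296013: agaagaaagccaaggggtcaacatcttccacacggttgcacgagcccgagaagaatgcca

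The remaining Sirpa probes lie 3105 and 4162 bases beyond the exon-joining one, at chr2:129371929-129371988 and chr2:129372986-129373045. They are shown because the Sirpa probes gave different answers on the hairpin. Each of them listed 0 RefSeq transcripts of the NM type, while the exon-joining probe listed 1. Their place under Sirpa thus rests on the gene name in the scanner output.
Sirpa A_51_P432764: ttttttcaaattcccagaatcctgaggacc
Sirpa A_52_P170635: atgagaaggaaacaggccctgttttgtaca

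Cd300a had probes 2866 bases apart, at chr11:115010200-115010259 and chr11:115013125-115013184, and is shown because only the upstream one rose.
Cd300a A_52_P492142: ttcatccgtggcattcaactcccagaggca
Cd300a A_51_P147003: cagggatatagacatggccttctctattca

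Lilra6 was read at chr7:3469860-3469919 and chr7:3466441-3466500, both on the minus strand. These probes listed 3 and 4 RefSeq transcripts of the Pira family respectively, so they report this family of near-identical genes and not Lilra6 alone, and any split of its signal among members is uncertain.
Lilra6 A_52_P451929: gagagctgacatcatgcagcactctagcca
Lilra6 A_52_P601383: cttggcaaagccatagacagacccaccctg

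The Lilrb3 probes, at chr7:3335505-3335564 and chr7:3335515-3335574, shared 50 bases and are close to a repeat measurement of the same site. The Lilrb4 probe listed 2 transcripts, those of Lilrb4a and of its neighbour Lilr4b. Cd33 had a single probe at chr7:39704372-39704431. The second Pilra probe lay at chr5:136740121-136740180 and listed 0 RefSeq transcripts of the NM type.

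With 4-OHT the receptors rose together in control cells, by at least 274-fold on both probes of Lilra6 and at least 72.2-fold for Lilrb3. Tyrobp rose 38.5-fold, Pilra at least 36.3-fold on 1 probe and at least 5.17-fold on the other, Lilrb4 2.27-fold and Sirpa 1.45-fold to 1.79-fold. Cd33 did not pass the test, and Cd300a passed on 1 of its 2 probes. In this comparison 12 of 14 probes were higher and none lower at an adjusted p under 0.05, against 17.6% of all 22364 tested probes that were higher (limma). In shRNA cells 13 of 14 were higher, against 16.6% of all probes. The median change of the 14 probes was 4.10 in control and 4.25 in shRNA cells, while the median of all probes was -0.05 and -0.06. Of these 14, 4 passed the filter on dim probes only through arrays after 4-OHT, so a rise of theirs was a condition of being tested. Among the other 10, 8 rose in control and 9 in shRNA cells, and their median change was lower, at 1.01 in control and 0.88 in shRNA cells.

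**Figure D1:**
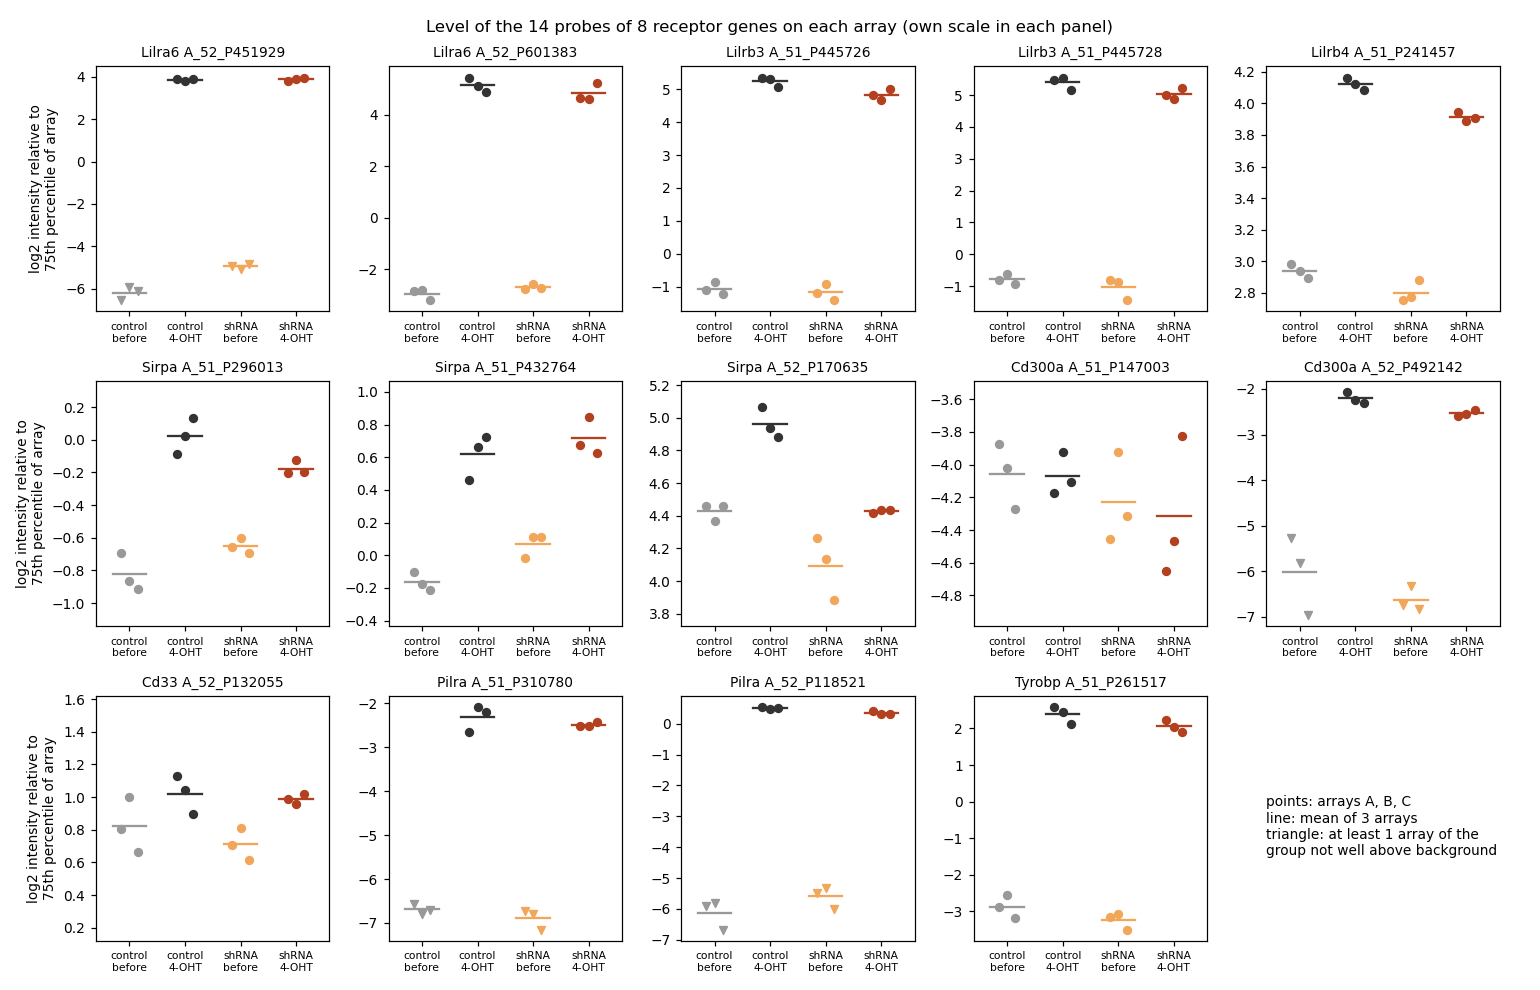
Level of each of the 14 probes (vertical axis, log2 intensity relative to the 75th percentile of the array, with its own scale in each panel) on the 3 arrays of each of 4 groups (horizontal axis); lines are means of 3 arrays and triangles mark groups with an array not well above background. Arrays before and after 4-OHT separate in both vectors for 12 probes, whereas Cd300a A_51_P147003 overlaps in both vectors and Cd33 overlaps in control cells. Over all probes, 22.3% in control and 22.4% in shRNA cells have every array after 4-OHT above every array before it.

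Lilra6, an activating receptor that pairs with Fcer1g, showed the widest separation. Its A_52_P451929 levels in control cells were -6.54, -5.91 and -6.08 before 4-OHT and 3.87, 3.81 and 3.88 after it. In shRNA cells they were -4.91, -5.07 and -4.83 before and 3.81, 3.91 and 3.96 after. The arrays of the vectors overlapped after 4-OHT, and no control array before 4-OHT was well above background. The rise was therefore at least 370-fold in control cells (log2 change 10.03, SE 0.14, adjusted p = 1.62e-11, limma) and at least 437-fold in shRNA cells (8.83, SE 0.14, adjusted p = 4.79e-11), where 2 of 3 arrays before 4-OHT were well above background. A fold written as "at least" uses, on each such array, the lowest signal that was well above background in place of a dim value below it, or rests on saturated arrays. The A_52_P601383 probe averaged -2.95 ± 0.22 before and 5.15 ± 0.29 after 4-OHT in control cells, and -2.69 ± 0.10 and 4.83 ± 0.34 in shRNA cells (SD, n = 3). It was saturated on all 3 arrays of both groups after 4-OHT, which made its rise at least 274-fold in control and at least 185-fold in shRNA cells.

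Lilrb3, the inhibitory partner of Lilra6, had A_51_P445728 levels of -0.80, -0.61 and -0.93 in control cells before 4-OHT and of 5.46, 5.55 and 5.18 after it. In shRNA cells the levels went from -0.79, -0.88 and -1.45 to 5.00, 4.88 and 5.21. Arrays before and after did not overlap in either vector, and the change was at least 72.2-fold in control cells (6.17, SE 0.18, adjusted p = 2e-09, limma) and at least 67.3-fold in shRNA cells (6.07, SE 0.18). The overlapping probe A_51_P445726 gave at least 79.3-fold and at least 64.7-fold. These are lower bounds, since between 1 and 2 arrays of each group after 4-OHT were saturated on these probes.

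Tyrobp, the ITAM adaptor, rose in both vectors. Control arrays read -2.89, -2.55 and -3.19 before and 2.60, 2.45 and 2.13 after 4-OHT, and shRNA arrays read -3.17, -3.07 and -3.50 before and 2.23, 2.04 and 1.91 after. All 12 were well above background and none was saturated, so both ends of this change were measured. The change was 38.5-fold in control cells (5.27, SE 0.18, adjusted p = 7.49e-09, limma) and 39.6-fold in shRNA cells (5.31, SE 0.18, adjusted p = 8.38e-09).

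Pilra, an inhibitory receptor whose activating partners Pilrb1 and Pilrb2 signal through Tyrobp, was well above background only after 4-OHT. On A_52_P118521, control arrays rose from -5.91, -5.81 and -6.67 to 0.55, 0.47 and 0.50, and shRNA arrays from -5.47, -5.31 and -6.00 to 0.42, 0.31 and 0.33. No array before 4-OHT was well above background and every array after it was. The rise was at least 36.3-fold in control and at least 46.9-fold in shRNA cells, and on A_51_P310780 at least 5.17-fold and at least 6.55-fold. The fitted changes were 6.63 and 5.95 on the former probe and 4.38 and 4.40 on the latter, whose arrays before 4-OHT were not well above background either.

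Cd300a, an inhibitory receptor for phosphatidylserine, divided by probe. A_52_P492142 averaged -6.02 ± 0.86 before and -2.21 ± 0.13 after 4-OHT in control cells, and -6.63 ± 0.28 and -2.53 ± 0.06 in shRNA cells (SD, n = 3). This amounted to a rise of at least 5.54-fold in control cells (3.81, SE 0.33, adjusted p = 6.48e-06, limma) and at least 6.37-fold in shRNA cells. A_51_P147003 was well above background on all 12 arrays and flat, with -3.87, -4.02 and -4.27 before and -4.18, -3.92 and -4.10 after 4-OHT in control cells. Its change was -0.01 (95% interval -0.48 to 0.46) in control and -0.08 (95% interval -0.55 to 0.38) in shRNA cells. The upper ends of these intervals lay below the rises of at least 2.47 and at least 2.67 on the log2 scale that the bounds give for A_52_P492142. A single probe per gene, taken as the one of highest mean level, would have shown Cd300a as unmoved. By that choice 6 of 8 genes rose in control cells and 7 of 8 in shRNA cells, against 17.3% and 16.2% of all genes. The Pilra probe among these passed the filter only through arrays after 4-OHT, so its rise was a condition of being tested.

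Lilrb4, an inhibitory receptor known from mast cells and macrophages, was already bright before 4-OHT and rose modestly. In control cells it went from 2.98, 2.94 and 2.89 to 4.16, 4.12 and 4.08, and in shRNA cells from 2.75, 2.77 and 2.88 to 3.95, 3.89 and 3.91. The change was 2.27-fold in control cells (1.19, SE 0.06, adjusted p = 1.17e-07, limma) and 2.16-fold in shRNA cells (1.11, SE 0.06).

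Sirpa, the inhibitory receptor for Cd47, rose on all 3 probes in both vectors. In control cells the changes were 0.84 (SE 0.08) on A_51_P296013, 0.78 (SE 0.09) on A_51_P432764 and 0.53 (SE 0.09) on A_52_P170635, with adjusted p between 1.25e-05 and 0.00114 (limma). In shRNA cells they were 0.47, 0.65 and 0.34, with the last at an adjusted p of 0.0176. That last call was lost, with adjusted p of 0.0567, under normexp background correction, with 0.0513 without shRNA array B after 4-OHT, and with 0.0501 when only the 2 groups compared were fitted.

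Cd33, a sialic acid-binding receptor, moved little. Its levels in control cells were 0.81, 1.00 and 0.67 before and 1.13, 1.04 and 0.89 after 4-OHT, and those arrays overlapped. The control change of 0.20 (95% interval -0.02 to 0.41, adjusted p = 0.137, limma) did not pass. The shRNA change of 0.28 (adjusted p = 0.047) passed narrowly, from 0.71, 0.81 and 0.61 to 0.99, 0.95 and 1.02. It no longer passed without shRNA array A, B or C of either time (adjusted p 0.0501 to 0.127), nor without control array A before 4-OHT (0.0609) or B after it (0.066), nor with normexp (0.0634) or no filter on dim probes (0.112), while the control change passed without control array B before 4-OHT (0.0426).

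**Figure D2:**
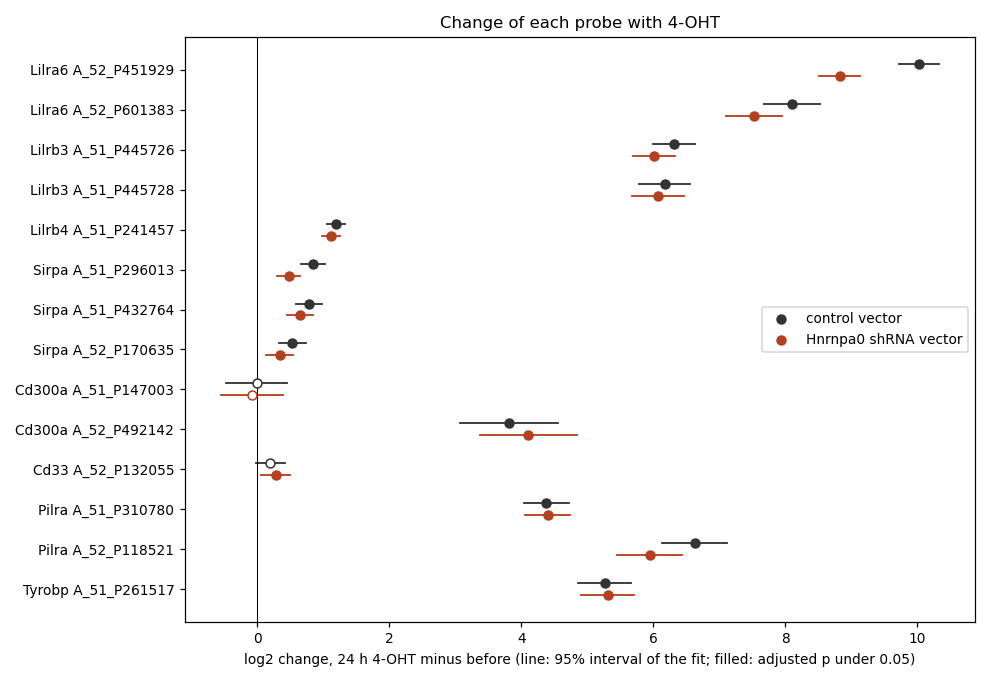
Change of each probe with 24 h of 4-OHT (horizontal axis, log2) in control and shRNA cells; lines are 95% intervals of the fit over 12 arrays and filled points have an adjusted p under 0.05. Changes run from -0.01 to 10.03 in control cells and from -0.08 to 8.83 in shRNA cells, and the open points are Cd300a A_51_P147003 in both vectors and Cd33 in control cells.

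The arrays lay on 3 slides, and the rise could be read within a slide. Slide 1 held control array A after 4-OHT with the 3 control arrays before it, and slide 3 held shRNA array C before 4-OHT with the 3 shRNA arrays after it. Within them the Tyrobp difference was 5.47 and 5.57, that of Lilrb4 was 1.23 and 1.03, and that of Lilra6 A_52_P451929 was 10.05 and 8.72. For Sirpa A_52_P170635 they were 0.64 and 0.55, and for Cd300a A_51_P147003 -0.12 and -0.00. Fitted with slide as a fixed block, 12 probes rose in each vector, and Cd33 in shRNA cells no longer passed (0.37, adjusted p = 0.0638).

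Few of these probes differed between the vectors. Before 4-OHT, 1 of 14 differed between vectors, against 0.362% of all probes: Lilra6 A_52_P451929, higher in shRNA cells by 1.24 (SE 0.14, adjusted p = 0.013, limma). That value compares a group with no array well above background and a group with 2 such arrays, and it gives no usable fold. It was 0.31 (adjusted p = 0.251) after normexp background correction, 1.22 (adjusted p = 0.152) with slide as a fixed block, and 1.29 (adjusted p = 0.0679) without control array C before 4-OHT. The other Lilra6 probe, well above background on all arrays before 4-OHT, differed by 0.25 (95% interval -0.17 to 0.67).

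After 4-OHT 2 of 14 probes were lower in shRNA cells, against 8.8% of all probes that were lower and 16.9% that differed in either direction, so the share of members lay near the background. These were Lilrb4, lower by 1.15-fold (log2 difference -0.21, SE 0.06, adjusted p = 0.0435, limma), and Sirpa A_52_P170635, lower by 1.45-fold (-0.53, SE 0.09, adjusted p = 0.0144). Of the 14 changes, 12 were negative, with a median of -0.23 beside -0.03 for all probes, 53.2% of which were negative. With slide as a fixed block 7 of the 14 were negative, beside 56.1% of all probes. For Lilrb3 A_51_P445726 the difference was -0.41 (adjusted p = 0.0717, with 1 control and 2 shRNA arrays saturated) and for Tyrobp -0.33 (95% interval -0.73 to 0.07).

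No slide held both vectors before 4-OHT or both after it, so slide and vector cannot be told apart at either time, and a slide block draws on the arrays of the other time. With slide as a fixed block 0 probes of the whole array were called before 4-OHT and 1, higher in shRNA cells, after it. Hnrnpa0, the target of the hairpin, was thus not called there either, and a call lost under this block does not set a member apart. In a fit with slide as a fixed block the differences after 4-OHT were -0.30 (adjusted p = 0.673) for Lilrb4 and -0.16 (adjusted p = 0.867) for Sirpa A_52_P170635, and with slide as a random block -0.25 (adjusted p = 0.184) and -0.41 (adjusted p = 0.181). The Lilrb4 call was also lost without 10 of the 12 arrays in turn (adjusted p 0.0543 to 0.122), with quantile normalization (0.305), normexp background correction (0.242), no filter on dim probes (0.132) and only the 2 groups compared (0.097). That of Sirpa was lost without control array B or shRNA array C after 4-OHT (adjusted p 0.0523 and 0.0526) and with normexp (0.0581).

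**Figure D3:**
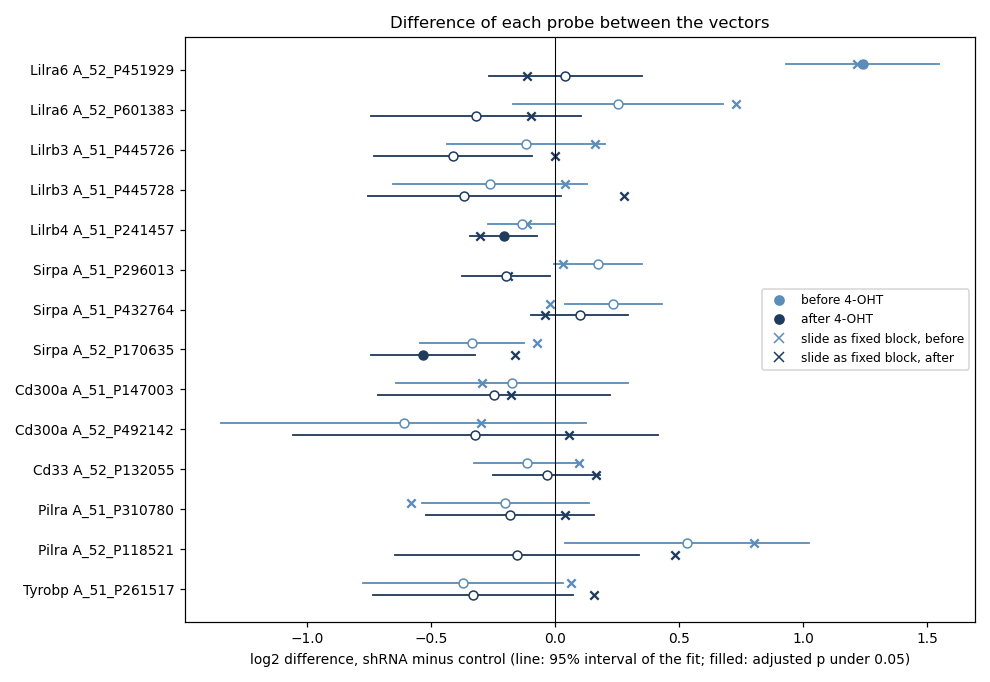
Difference between shRNA and control cells (horizontal axis, log2, shRNA minus control) for each probe before and after 4-OHT; lines are 95% intervals of the fit over 12 arrays, filled points have an adjusted p under 0.05 and crosses give the value with slide as a fixed block. Filled points are Lilra6 A_52_P451929 before 4-OHT at 1.24 and, after it, Lilrb4 at -0.21 and Sirpa A_52_P170635 at -0.53.

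The Sirpa probes disagreed on the hairpin, a feature known when the gene was chosen and given here as a description. On A_52_P170635 control arrays read 4.46, 4.37 and 4.46 before 4-OHT and shRNA arrays 4.26, 4.14 and 3.88. After it they read 5.07, 4.94 and 4.88 against 4.42, 4.43 and 4.43. Every shRNA array was below every control array at both times, by -0.34 and -0.53 on average.
On A_51_P432764 the control arrays read -0.10, -0.18 and -0.21 before 4-OHT and the shRNA arrays -0.02, 0.11 and 0.11, all higher, and after it 0.46, 0.66 and 0.73 against 0.68, 0.84 and 0.63, which overlapped. The differences were 0.23 and 0.10. The exon-joining probe A_51_P296013 went from -0.69, -0.87 and -0.91 to -0.09, 0.02 and 0.13 in control cells and from -0.66, -0.60 and -0.69 to -0.21, -0.13 and -0.20 in shRNA cells. Here shRNA arrays were all higher before 4-OHT, by 0.17, and all lower after it, by -0.20. Arrays of the vectors did not overlap on 32.9% of all probes before and on 39.4% after 4-OHT. When slide was a fixed block the differences before 4-OHT shrank to 0.03, -0.02 and -0.07 on A_51_P296013, A_51_P432764 and A_52_P170635, and those after it were -0.19, -0.04 and -0.16, all of one sign, so the disagreement of the probes after 4-OHT was not seen in that fit.

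The size of the 4-OHT response was not shown to depend on the vector for any member: 0 of 14 probes passed the test of the difference between responses (limma), against 0.00447% of all probes, and 1146 of all probes had an unadjusted p under 0.05. The lowest adjusted p was 0.321, for Lilra6 A_52_P451929, whose control arrays before 4-OHT were not well above background, so that the bounds above give its difference no direction. With normexp its adjusted p was 0.995 (log2 difference -0.16). For Tyrobp the difference was 0.04, with a 95% interval of -0.53 to 0.61, and for Lilrb4 -0.07, with one of -0.26 to 0.12. The intervals of the 14 probes reached between 0.19 and 1.04 to either side, and those of the 10 measured before 4-OHT at most 0.66.

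Related genes were followed in 4 lists. Of 27 tested genes of other paired and Ig-like receptors, 20 rose and 3 fell with 4-OHT in control cells, with a median change of 2.18 (1.72 with bounds for dim probes, over 25 genes), and 20 rose and 2 fell in shRNA cells, beside 17.3% and 16.2% of all genes that rose and 22.8% and 21.4% that fell. Of the 33 genes of this list on the array, 14 were well above background on no control array before 4-OHT, and 4 on none after it. In shRNA cells these counts were 11 and 4. For some of the tested genes a rise may therefore have been a condition of being tested. The largest fitted rises in control cells were those of Pira6 (at least 92.8-fold), Pira1 (at least 33.9-fold) and Sirpb1a (67.3-fold), which are activating partners of the Lilrb3 and Sirpa families. The place of Pira1 rests on arrays not well above background before 4-OHT, and Trem2 (37.8-fold) and Pilrb1 (a log2 change of 6.02) lay above its bound. The falls were of Vsir (-1.17), an inhibitory relative of B7 molecules, Pecam1 (-1.10), an adhesion receptor with ITIMs, and Ceacam1 (-0.63). Pira6 shares transcripts with the Lilra6 probes and is not independent of them.
In the ITAM list 10 of 23 tested genes rose and 6 fell in control cells, with a median of 0.29. Blnk, a Syk substrate, rose at least 3.32-fold, Prkcd 4.56-fold and Fcer1g, the adaptor of Lilra6, 4.52-fold. The falls were led by Hcst (-0.49), the other small adaptor beside Tyrobp, Lat (-0.48) and Vav3 (-0.48). Syk itself rose at least 1.71-fold.
Among ITIM effectors and other genes of inhibitory signalling 9 of 18 rose and 2 fell in control cells, with a median of 0.36. Ptprc (CD45, which activates Src kinases) rose at least 114-fold, Sla 106-fold and Ptpn6, the phosphatase recruited by ITIMs, 2.94-fold, while Ptpn11 changed by 0.02. The falls were of Ubash3a (-1.77) and Dok1 (-0.46).
Of 13 tested genes for reported ligands 4 rose and 5 fell in control cells, with a median of 0.17. Fn1 rose at least 2.46-fold, Rtn4 1.69-fold and Cd99, a ligand of Pilra, 1.58-fold, and Thbs1 (-1.85) and Apoe (-0.68) were among the falls. Cd47, the ligand of Sirpa, was saturated in both groups and gave no fold. In shRNA cells 3 of these 13 genes rose and 3 fell, with a median of -0.15.

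**Figure D4:**
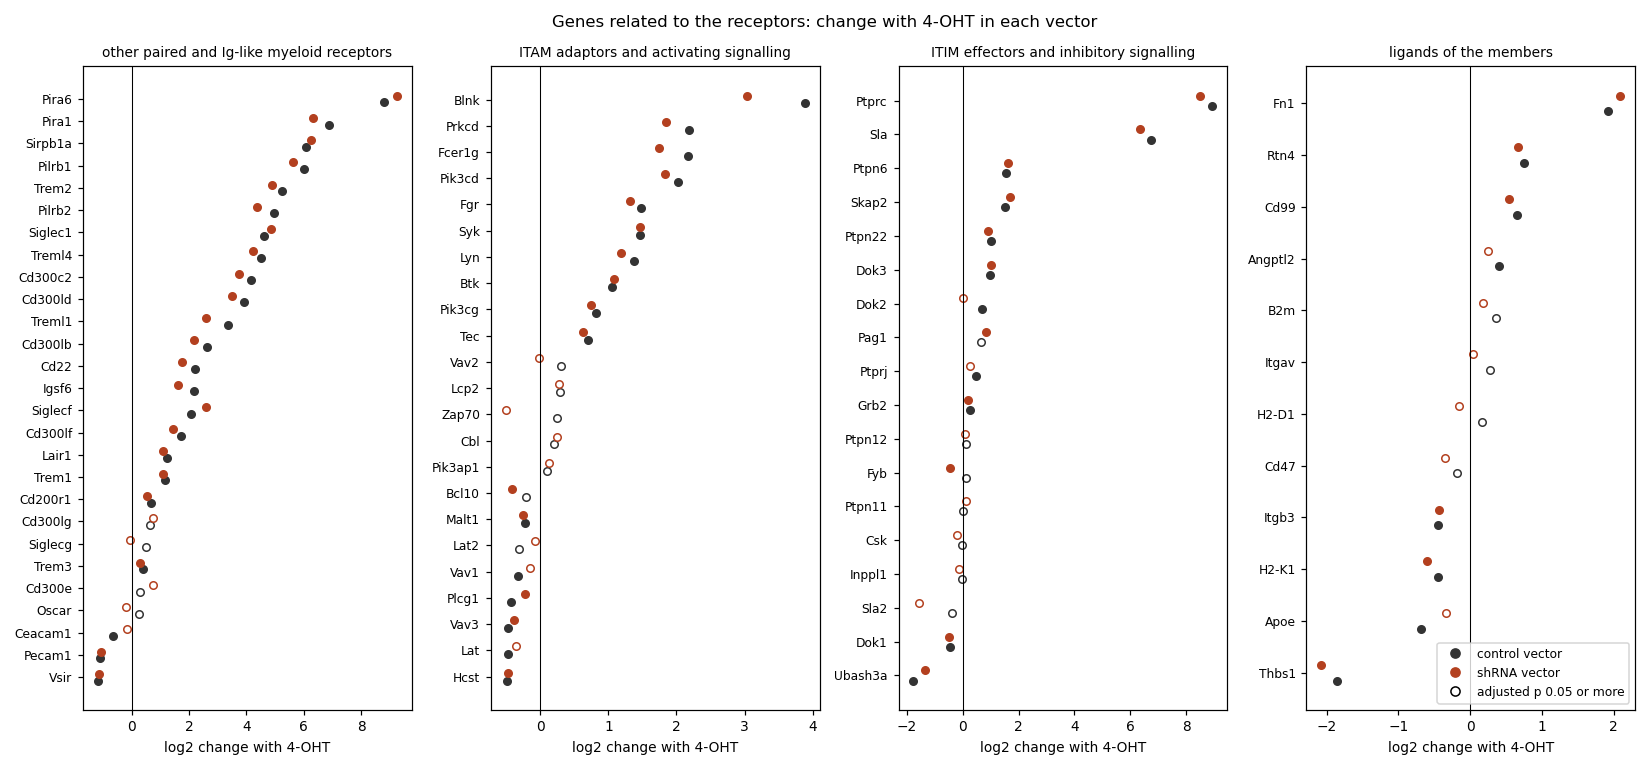
Change with 4-OHT (horizontal axis, log2, with its own range in each panel) of tested genes in 4 related lists, in control and shRNA cells, by the probe of highest mean level; filled points have an adjusted p under 0.05. In the receptor list 20 of 27 genes rose in each vector, led by Pira6, whereas the ligand list held 4 rises in control cells.

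Between the vectors none of these 4 lists held a called gene before 4-OHT, where 0.359% of all genes were called by this measure. After 4-OHT 16.4% of all genes were called. In the receptor list Ceacam1 was higher in shRNA cells (1.24) and Pira1 (-1.02), Trem2 (-0.63), Treml4 (-0.50) and Cd200r1 (-0.38) were lower, 5 of 27. Vav1 was higher (0.29) and Fcer1g lower (-0.35) among 23 ITAM genes. Among the 18 genes of ITIM effectors and inhibitory signalling Ubash3a was higher (0.58). Ptprc (-0.78), Fyb (-0.77), Dok2 (-0.57) and Ptprj (-0.38) were lower. Of 13 ligand genes Itgav (-0.37), H2-K1 (-0.31) and Cd99 (-0.29) were lower. When slide was a fixed block 1 probe of the whole array was called in this comparison, and with slide as a random block 0, where 7821 probes had an unadjusted p under 0.05 without a block.

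Over the 12 arrays the genes whose pattern was most like each member were found by Pearson correlation among 11080 named genes. For Tyrobp they were Sirpb1a and Gprc5b (r = 0.999 and 0.998), for Lilra6 Bcl2a1b and Sla (0.999 for both), and for Lilrb3 Slc37a3 and Il18 (0.998 for both). For Lilrb4 they were Pira1 and Plek (0.998 for both) and for Pilra Fam102a and Ltb (0.998 and 0.997). Values this high were common, since 9.08% to 9.33% of the genes exceeded 0.9 with each of these 5 members and the arrays share the separation by 4-OHT. Sirpa was nearest to Aktip and Gcsh (0.989 and 0.985), Cd33 to Cep68 and Ear6 (0.943 and 0.913), and Cd300a, by its flat probe, to Insm2 and Ttbk1 (0.874 and 0.870).

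The stretch of DNA before the gene start was examined for GAGGAA, the purine-rich core that PU.1 binds, on both strands. RefSeq promoter sequences on GRCm38.p6 were matched for 5 of 8 members, and not for Lilrb4, Sirpa or Tyrobp. All 5 held the motif in the 250 bases before the start, as did 23.3% of 32851 promoters. Lilra6 and Pirb (Lilrb3) each held it 3 times, against 0.429% of all promoters with 3 or more, and Cd300a, Cd33 and Pilra once. For Cd300a and Cd33 the window lay inside the gene record, whose start was 889 and 4253 bases further upstream. The gene record of Lilra6 began 70 bases upstream of the start used, so 70 bases of its window lay inside the record. All matches of Lilra6 lay further upstream than that. The 109 bases that hold the matches before Lilra6 and Pirb are shown, with the matches in capitals, because no other matched member held the motif more than once. Any part of the motif in the rise was not tested. These stretches lie at chr7:3915613-3915721 and chr7:3720464-3720572, both on the minus strand, and are identical at 105 of 109 positions, so they are near-copies and not independent cases.
Lilra6: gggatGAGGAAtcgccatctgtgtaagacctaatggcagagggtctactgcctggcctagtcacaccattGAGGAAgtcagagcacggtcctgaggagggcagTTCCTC
Pirb: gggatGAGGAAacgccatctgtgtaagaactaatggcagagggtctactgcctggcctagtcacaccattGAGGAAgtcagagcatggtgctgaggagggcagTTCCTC
A match of letters is a description only, and binding was not measured.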

How the data were processed

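RNA of 12 PUER cultures was hybridized to Agilent arrays (design 014868) and read by the authors with Feature Extraction 9.5.3.1, per the file headers. The authors deposited Cy3 intensity for every spot on a linear scale, after background subtraction and without scaling between arrays. The log2 of this intensity was taken minus the 75th percentile of each array, spots marked as outliers were left out, and spots of a probe were averaged. Probes well above background on at least 3 arrays, with at least 2 arrays per group, were tested (22364). limma 3.58.1 in R 4.3.3 was fitted to 12 arrays with 4 group means and 5 contrasts (lmFit, eBayes), adjusted by Benjamini-Hochberg, threshold 0.05, and checked on simulated data. All 14 member probes were described. From related lists the 3 largest rises and falls with 4-OHT in control cells were named, every gene called between vectors, and the 2 genes most correlated with each member; Syk, Cd47, Ptpn11, Pilrb1 and Trem2 (for its rise) were chosen after their values were seen. The values of 1 ligand gene are not reported here. Members and lists were chosen with earlier results of these data known. Alternatives changed normalization, background correction (normexp, offset 50), filter, probes per gene, slide, replicate letter, value table, arrays fitted and outlier spots. Names came from transcript identifiers for 22951 probes, current symbols for 6659, older symbols for 3109 and the file for 8455. Figures used matplotlib 3.10.9 in Python 3.11.15.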

Additional observations from a re-analysis of the deposited data

Results flagged for a closer look

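Sirpa on the exon-joining probe A_51_P296013 stood out because its arrays moved to opposite sides between the treatments. All 3 shRNA arrays were above all 3 control arrays before 4-OHT and below them after it. The difference between the 4-OHT responses was -0.37 (limma, unadjusted p = 0.00796, adjusted p = 0.872 over all probes), so it did not pass. It was -0.40 with quantile normalization, -0.28 with normexp background correction, -0.22 with slide as a fixed block (adjusted p = 0.571) and -0.29 with slide as a random block, none past the threshold. With slide as a fixed block the differences were 0.03 before and -0.19 after 4-OHT, and slide and vector cannot be told apart at either time.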

How the results depend on the processing

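The count of member probes that rose with 4-OHT was 12 in control and 13 in shRNA cells, and 6 and 7 with 1 probe per gene, where 8 were tested. In shRNA cells it was 12 with slide as a fixed or random block. There the calls of Sirpa A_52_P170635 and Cd33 were lost with normexp, and that of Cd33 was lost without 8 of the 12 arrays in turn. Before 4-OHT 1 probe differed between the vectors, and 0 with normexp, with 1 probe per gene, with slide as a fixed or random block and with only the 2 groups compared. After it 2 differed, 1 with quantile normalization, no filter, the replicate block or only the 2 groups compared, and 0 with normexp or slide as a fixed or random block. Leaving out 1 array at a time gave 0 to 2 probes before and 0 to 3 after 4-OHT. Over all probes the count before 4-OHT, 81, ran from 0 (slide as a fixed block) to 932 (without shRNA array A before 4-OHT), and the count after, 3787, from 0 (slide as a random block) to 4654 (without shRNA array C before 4-OHT); it was 225 without shRNA array C after 4-OHT and 252 without control array B after 4-OHT. The share called higher there fell to 28.3% with normexp.

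Differences that changed sign were uncalled in both settings. Cd300a A_51_P147003 with 4-OHT in control cells was 0.15 with normexp and ran from -0.12 to 0.078 without 1 array, and in shRNA cells from -0.33 to 0.085. Before 4-OHT, between vectors, Pilra A_51_P310780 was 0.10 with quantile normalization and 0.092 with normexp, and Pilra A_52_P118521 was -0.0043 with normexp. In the fit with slide as a fixed block, Lilrb3 A_51_P445726 was 0.16 and A_51_P445728 0.038, Sirpa A_51_P432764 -0.021, Cd33 0.094 and Tyrobp 0.062; without 1 array Lilrb3 A_51_P445726 ran from -0.24 to 0.0013. After 4-OHT, Lilra6 A_52_P601383 was 0.031 with quantile normalization and Cd33 0.012 with normexp. In the fit with slide as a fixed block, Lilra6 A_52_P451929 was -0.11, Lilrb3 A_51_P445726 0.00060 and A_51_P445728 0.28, Sirpa A_51_P432764 -0.044, Cd300a A_52_P492142 0.053, Cd33 0.16, Pilra A_51_P310780 0.038 and A_52_P118521 0.48, and Tyrobp 0.16. With slide as a random block Lilra6 A_52_P451929 was -0.022, Cd33 0.021 and Pilra A_52_P118521 0.077, and without 1 array Cd33 ran from -0.098 to 0.018. The cause was not tested.

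Whether a replicate letter marks a shared experiment across groups was not stated. Correlations of same-letter deviations ran from -0.06 to 0.29, and the main fit did not pair arrays by letter. With the replicate block 12, 13, 1 and 1 member probes were called in the 4 comparisons, and Lilrb4 after 4-OHT no longer passed (adjusted p = 0.0536). Saturation limits Lilra6 and Lilrb3 after 4-OHT, and background limits Lilra6 A_52_P451929, Pilra and Cd300a A_52_P492142 before it.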
